A study of Mus musculus with 16 samples.

Results

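The 7 genes described here encode the CSF1 axis and the receptors through which monocytes and macrophages are recruited and maintained: the ligands Csf1 and Il34, their shared receptor Csf1r, the CSF2 receptor subunits Csf2ra and Csf2rb, and the chemokine receptors Ccr2 and Cx3cr1. They were chosen by symbol from the 52636 genes in the count files, each by 1 Ensembl identifier on mm10. The rule itself uses no measured value, but the members were proposed with earlier results of these data known. CSF1 is the growth factor on which most tissue macrophages depend, and it acts through the tyrosine kinase receptor CSF1R, to which IL34 binds as well. In sensory ganglia, Csf1 is known as a gene that axotomised sensory neurons switch on, while Csf1r marks the resident macrophages around the neurons and the microglia of the cord. CCR2 brings monocytes out of the blood towards CCL2-type chemokines, and CX3CR1 binds the neuronal chemokine CX3CL1.

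RNA from L3 to L6 dorsal root ganglia (DRG) of 16 male C57Bl6/J mice aged 3 to 4 months was sequenced, with 1 mouse per library and 4 mice per group. The study asked how prolonged desipramine (DMI), a tricyclic antidepressant that blocks noradrenaline reuptake, alters the DRG after nerve injury. Sham-Saline and Sham-DMI mice had sham surgery on the left hindleg, and SNI-Saline and SNI-DMI mice had the tibial spared nerve injury (SNI), in which the common peroneal and sural branches of the sciatic nerve are cut and the tibial branch is left. DMI at 15 mg/kg or saline was injected intraperitoneally 2 times a day for 3 weeks, beginning 4 weeks after surgery by the labels and elsewhere in the study, where its methods alone have 4 months. No mouse carried a transgene, no cells were sorted, and females were not studied. By the labels the tissue is spinal cord, while the cell type is dorsal root ganglia. In every library the summed level of 10 sensory neuron markers was 7060 to 8450 CPM (counts scaled to a fixed total of reads on genes), and that of 8 markers of spinal cord glia and motor neurons was 14.1 to 27.4 CPM.

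Between 41194238 and 73920332 reads per library fell on genes, so that the member with the fewest reads, Csf2rb, still had 74 to 316 counts in each library. Between replicate libraries the chi-square per gene was 10.38 to 44.28, and counting error by itself gives values near 1, so the spread between mice rather than depth set the precision. All 7 members passed the filter on low counts, among 21371 genes tested. The libraries carry sample numbers 17 to 24 with DMI and 33 to 40 with saline, and within these SNI-Saline 33 to 36, Sham-Saline 37 to 40, Sham-DMI 17 to 20 and SNI-DMI 21 to 24. Sample number and group cannot be told apart. In bulk tissue, fewer cells of a type and less RNA per cell cannot be told apart either. No member had, in any group, 1 library that stood apart by Dixon's criterion (28 checks).

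Upstream sequence is shown for Csf1, the ligand whose level differed most firmly between groups, and for Csf2ra, the only member with a motif match there. RefSeq's promoter table on GRCm38.p6 holds 4 of the 7 members (Csf1, Csf2ra, Ccr2 and Cx3cr1). The 250 bases before the annotated start were searched on both strands for the AP-1 motif TGANTCA, the cyclic AMP response element TGACGTCA and the ETS-type motif GAGGAA. These do not overlap one another in these windows. The shorter ETS core GGAA was not searched for by itself. The windows of Ccr2 and Cx3cr1 lie within the RefSeq or GENCODE models of the same genes and are not printed. Capitals mark the matched motif, and both genes lie on the minus strand.
Csf1, chr3:107760470-107760719, 250 bases: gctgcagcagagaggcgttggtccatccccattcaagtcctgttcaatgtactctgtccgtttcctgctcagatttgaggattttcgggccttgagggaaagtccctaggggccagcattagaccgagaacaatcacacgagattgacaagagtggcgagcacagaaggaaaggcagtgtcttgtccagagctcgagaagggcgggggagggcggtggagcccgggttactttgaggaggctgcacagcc
Csf2ra, chr19:61228462-61228668, 207 bases: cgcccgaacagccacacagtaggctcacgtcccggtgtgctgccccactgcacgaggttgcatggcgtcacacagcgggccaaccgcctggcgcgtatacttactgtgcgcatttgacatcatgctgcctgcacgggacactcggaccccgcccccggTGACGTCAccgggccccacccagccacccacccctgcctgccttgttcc

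Csf2ra held 1 cyclic AMP response element, which began 92 bases before the start, and 2 ETS-type motifs at 14 and 8 bases before it, in the unprinted end of its window. Of the 32851 promoter windows of the same length, 1.55% held the cyclic AMP response element, 23.3% the ETS-type motif and 6.75% the AP-1 motif. None of the 3 motifs was found in the windows of Csf1, Ccr2 or Cx3cr1, which says only that these letters are not there. The Ccr2 window was the poorest in G and C, at 37.2%, against 56.4% for Csf1, 64.8% for Csf2ra and 53.6% for Cx3cr1.

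Csf2rb is shown beside its neighbour Csf2rb2 because reads of the 2 genes can be hard to part. Csf2rb (chr15:78325752-78353847, plus strand) encodes the common beta subunit shared by the receptors for CSF2, IL3 and IL5, and Csf2rb2 (chr15:78282507-78305721, minus strand) a mouse beta subunit particular to IL3. Their coding sequences were identical at 2505 of 2631 aligned bases (95.2%), and the first 150 coding bases differed at 6 positions, in capitals.
Csf2rb: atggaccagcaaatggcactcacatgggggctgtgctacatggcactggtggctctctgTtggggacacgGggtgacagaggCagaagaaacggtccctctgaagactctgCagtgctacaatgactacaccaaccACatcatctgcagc
Csf2rb2: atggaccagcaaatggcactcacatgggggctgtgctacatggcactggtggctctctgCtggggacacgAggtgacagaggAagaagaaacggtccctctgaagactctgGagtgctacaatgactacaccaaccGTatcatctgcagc

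Of the 50-base windows (the read length) in the longest Csf2rb transcript, 18.4% also occurred in another gene, nearly all in Csf2rb2. The corresponding share was 17.7% for Csf1r, all in Hmgxb3, a gene on the opposite strand that shares 873 exonic bases, or 15.1% of the Csf1r exons. It was 1.49% for Il34, 1.06% for Cx3cr1, and 0% for Csf1 and Csf2ra. The library kit keeps strand, but whether the counting used it is not given in the sources used here, so the Csf1r values are less certain. Those of Csf2rb are less certain because of the sequence it shares with Csf2rb2, a separate locus. The study's reads were paired, which these single windows do not take into account.

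Per kilobase of exon, the ligand Il34 was the most abundant member in these ganglia, and the beta subunit Csf2rb the least. Over the 16 libraries the level was 13.6 ± 1.52 (SD) CPM per kb for Il34, 7.46 ± 0.873 for Csf2ra, 5.57 ± 1.23 for Csf1, 4.57 ± 1.12 for Csf1r, 1.96 ± 0.505 for Cx3cr1, 0.66 ± 0.18 for Ccr2 and 0.419 ± 0.134 for Csf2rb. In this order the neighbours Csf2ra and Csf1, Csf1 and Csf1r, and Ccr2 and Csf2rb differed by less than the sum of their SDs. The alpha subunit Csf2ra exceeded Csf2rb per kb by a ratio of 16.8 to 23.3 in the group means, with single libraries between 12 and 30.2. Il34 exceeded Csf1 by a mean ratio of 2.64 ± 0.262 (SD, n = 4) in Sham-Saline, against 2.16 ± 0.195 after SNI.

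**Figure D1:**
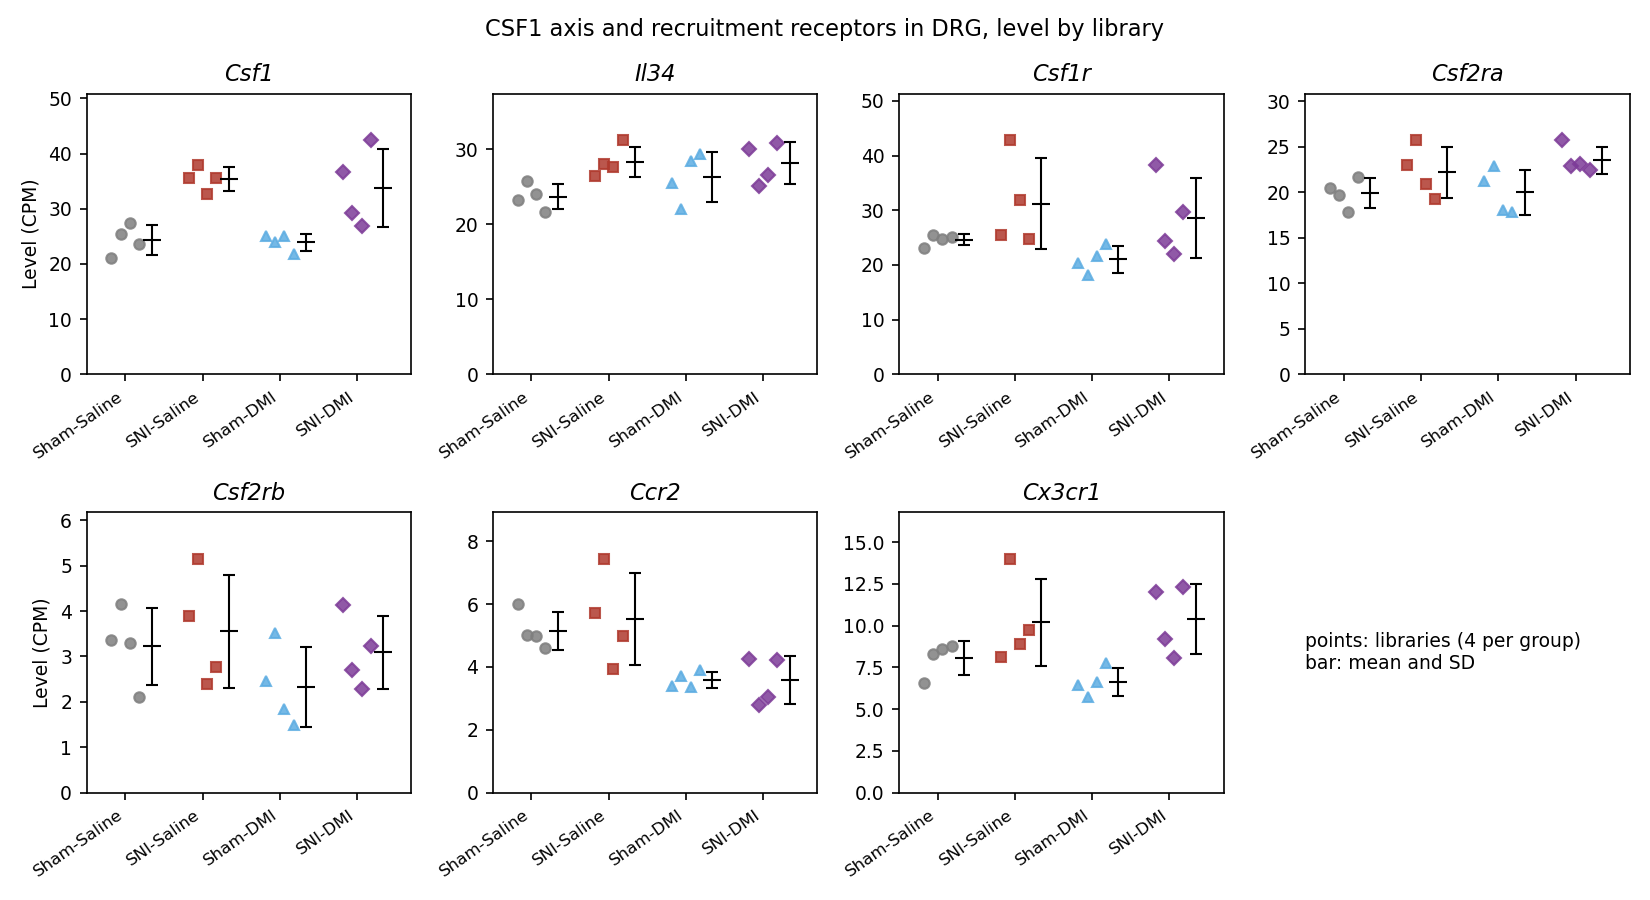
Level of each of the 7 genes in CPM (vertical axis, from 0) in the 16 DRG libraries by group (horizontal axis), with the mean and SD of 4 libraries beside the points. Csf1 in SNI-Saline (32.6 to 38 CPM) lies wholly above Sham-Saline (21.1 to 27.4 CPM), and Ccr2 in the 8 DMI libraries (2.79 to 4.25 CPM) lies below its Sham-Saline values (4.59 to 6 CPM). The share of all genes without overlap was 15.4% for SNI-Saline, 17.1% for Sham-DMI and 30.5% for SNI-DMI, each against Sham-Saline.

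After nerve injury without drug, both ligands of CSF1R were higher and none of the receptors passed the test. Csf1 rose 1.45-fold and Il34 rose 1.2-fold in SNI-Saline over Sham-Saline, while Csf1r was 1.27-fold and Cx3cr1 1.26-fold of Sham-Saline with intervals that reach 0 on the log2 scale. Thus 2 of 7 members passed edgeR's quasi-likelihood test at a Benjamini-Hochberg adjusted p under 0.1, where 12% of all genes tested did so (5.85% higher and 6.18% lower). Both were also the members whose groups did not overlap, which held for 15.4% of all genes. The median log2 fold change of the 7 members was 0.26, against 0.00 (-0.001) over all genes. By the cut-offs of the study (unadjusted p below 0.05, log2 fold change of 0.32 or more in either direction), only Csf1 counted, as did 7.15% of all genes.

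Csf1 (chr3:107741048-107760469, minus strand, 12 exon blocks) encodes the ligand also called M-CSF. In replicates 1 to 4 its level was 21.1, 25.4, 27.4 and 23.6 CPM in Sham-Saline, while SNI-Saline had 35.5, 38, 32.6 and 35.5 CPM. Every injured library was above every sham library. The log2 fold change was 0.54 (SE 0.113, 95% interval 0.3 to 0.77, adjusted p = 0.0163 by edgeR), and the exact two-sided permutation test on 4 against 4 gave p = 0.0286, the smallest it can give. It kept an adjusted p under 0.1 in each of 16 fits that left out 1 library. With the drug on both sides Csf1 was again higher with injury: 25.1, 23.9, 25 and 21.8 CPM in Sham-DMI against 36.7, 29.3, 26.9 and 42.4 CPM in SNI-DMI. These groups did not overlap either, although SNI-DMI spread more widely (SD 7.09 CPM against 2.21 in SNI-Saline). The log2 fold change was 0.50 (SE 0.113, adjusted p = 0.0881), and Csf1 was the 1 of 7 members that passed there, where 0.402% of all genes did. Leaving out a single library took the adjusted p above 0.1 in 10 of 16 fits, to between 0.1 and 0.285, with a log2 fold change of 0.36 to 0.53 in those fits, and the highest p came without SNI-DMI replicate 4. DMI did not move Csf1 past the test in injured mice (log2 fold change -0.07, 95% interval -0.3 to 0.17, adjusted p = 0.796) or in sham mice (-0.03, -0.27 to 0.21, adjusted p = 0.901).

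The Csf1 level moved with the markers of injured sensory neurons between sham and injured mice, but not with DMI in sham mice. These 11 genes include Atf3, Sprr1a, Ecel1 and Nts. In saline mice they summed to 392 to 438 CPM after sham surgery and 666 to 765 CPM after SNI. In DMI mice the sums were 481 to 562 and 709 to 919 CPM. With injury in saline 9 of the 11 rose, where 5.85% of all genes did. With DMI in sham mice 7 of the 11 rose, where 11.6% of all genes did, while the Csf1 log2 fold change was -0.03. Over the 16 libraries Csf1 correlated with this sum at Pearson's r = 0.874, and at 0.832 after the group means were removed. The correlation with the 10 macrophage markers was 0.822, and 0.595 within groups. All of these share libraries, depth and group structure and are given as a description. The genes whose log2 level was most like Csf1, among 15749 genes, were Cxcl14 (r = 0.959), Sez6l (0.947), Fst (0.942), Ctla2a (0.935) and Loxl2 (0.932). The part of cell composition in the Csf1 difference was not tested.

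Il34 (chr8:110741829-110805924, minus strand, 9 exon blocks) encodes the second CSF1R ligand, known from neurons and epithelia. Sham-Saline mice had 23.2, 25.8, 24.1 and 21.7 CPM and SNI-Saline mice 26.5, 28, 27.7 and 31.2 CPM, groups that lay close but did not overlap. With DMI they were 25.5, 22, 28.4 and 29.4 CPM in Sham-DMI and 30.1, 25.1, 26.6 and 30.9 CPM in SNI-DMI, which overlapped throughout. The injury difference in saline was 0.26 (log2, SE 0.09, adjusted p = 0.0916; exact permutation p = 0.0286) and sat close to the threshold. It was lost, at adjusted p of 0.101 to 0.223 and log2 fold changes of 0.21 to 0.30, without Sham-Saline replicate 1, 3 or 4 or without any 1 of the SNI-Saline libraries, and at 0.17 (adjusted p = 0.322) with the GC content and length trends removed. Schwann cell markers (7 genes) summed to 4260 to 6240 CPM in Sham-Saline mice and 5720 to 6920 CPM in SNI-Saline mice, and Il34 correlated with that sum at r = 0.77, and 0.842 within groups. The most similar genes were Capg (r = 0.954), Cryab (0.942), Ndrg1 (0.924), Sirt2 (0.92) and Slc35b2 (0.908).

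Csf1r, the receptor for both ligands and a marker of macrophages and microglia, had levels of 23.1, 25.5, 24.8 and 25.2 CPM in Sham-Saline mice, and of 25.4, 42.8, 31.9 and 24.8 CPM in SNI-Saline mice. The high mean in the injured group came from replicates 2 and 3, while replicates 1 and 4 were at the sham level. In the drug groups it was 20.4, 18.1, 21.6 and 23.9 CPM in Sham-DMI and 38.3, 24.3, 22 and 29.7 CPM in SNI-DMI. The log2 difference with injury was 0.34 in saline (95% interval 0 to 0.68, adjusted p = 0.222) and 0.45 in DMI (0.1 to 0.79, adjusted p = 0.301), and neither passed. With DMI against saline it was -0.13 in injured mice (-0.47 to 0.22) and -0.23 in sham mice (-0.58 to 0.11). Csf1r lies on mouse chromosome 18, and no sequence is printed for it.

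The variation of Csf1r between single mice matched that of the macrophage markers (Adgre1, Cd68, Aif1, Mrc1, Cd163, C1qa, C1qb, C1qc, Mertk and Fcgr1). Their sum was 98.3 to 115 CPM after sham surgery and 130 to 208 CPM after SNI in saline mice, and 80.6 to 113 and 103 to 195 CPM in DMI mice, and none was at 0. Csf1r correlated with the sum at r = 0.967, and 0.968 within groups. With the 8 dendritic cell markers, of which H2-Aa, H2-Ab1 and Cd74 are also expressed by macrophages, it correlated at 0.905 and 0.844, and Cx3cr1 did so at 0.881 and 0.836. Its nearest genes were Lyz2 (r = 0.963), Vav1 (0.961), Fcgr3 (0.945), H2-Aa (0.945) and Cd84 (0.945). Of the 10 macrophage markers, 5 rose with injury in saline (5.85% of all genes did): Cd68 (log2 fold change 0.77, adjusted p = 0.0454), C1qb (0.76), C1qa (0.72), Aif1 (0.72) and C1qc (0.69). None of the 5 kept the call when SNI-Saline replicate 2, when Sham-Saline replicate 1 or when Sham-Saline replicate 3 was left out, or with GC content and length trends removed, where their log2 fold changes were 0.60 to 0.66 (adjusted p of 0.101 to 0.173). No macrophage marker passed the test between SNI-DMI and SNI-Saline. Trem2, a macrophage and microglia receptor, was the only 1 of a separate list of 8 microglia markers called with injury in saline. Of these 8, 5 were higher and 3 lower, and their sum was 110 to 117 CPM in Sham-Saline and 110 to 120 CPM in SNI-Saline mice. Trem2 kept its call in each of the 16 fits without 1 library (log2 fold change 1.23, adjusted p = 0.0151, and 0.99 to 1.38 over those fits).

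**Figure D2:**
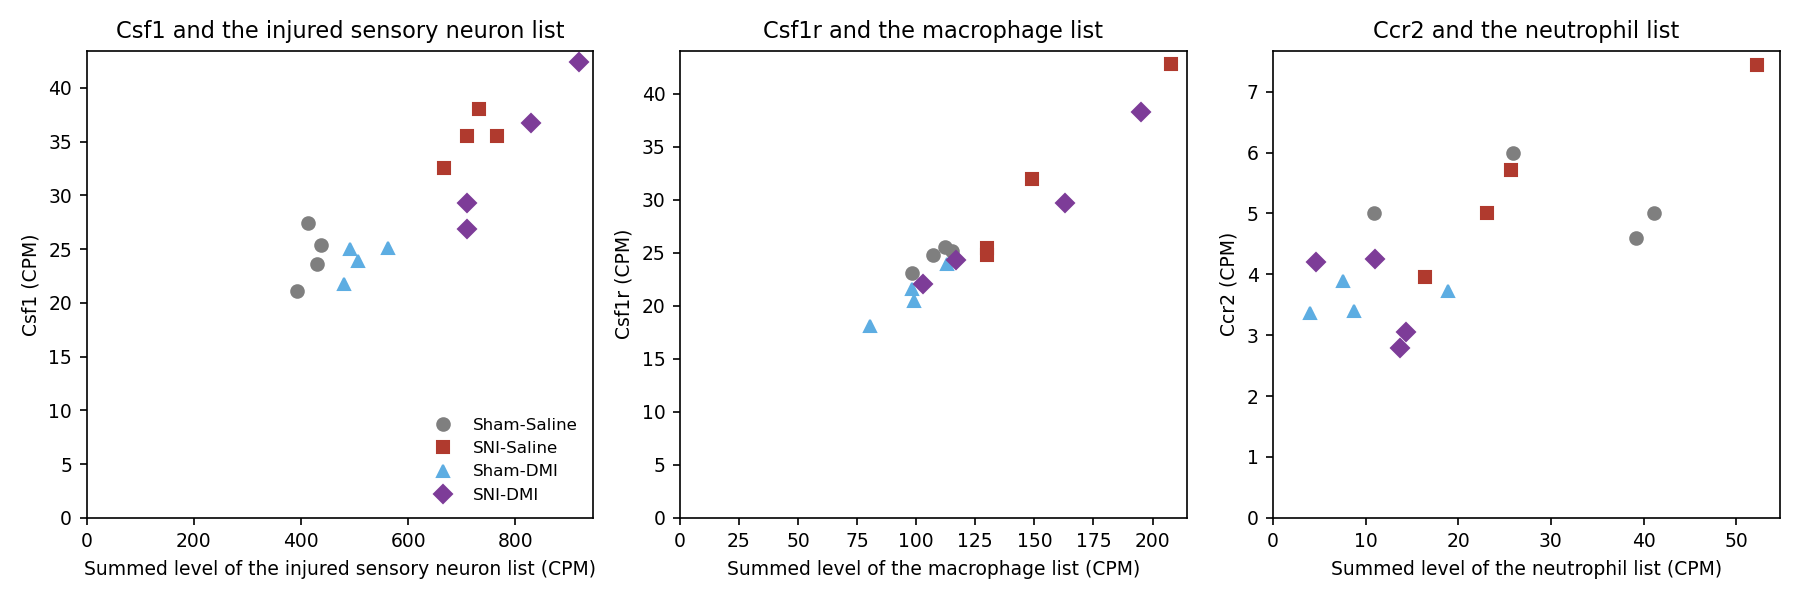
Levels of Csf1, Csf1r and Ccr2 (vertical axes, CPM) against the summed level of the injured sensory neuron, macrophage and neutrophil marker lists (horizontal axes, CPM) in the 16 libraries, with 1 symbol per group. Csf1r follows the macrophage sum closely in all groups (r = 0.967). For Ccr2 and the neutrophil sum r is 0.617, and 0.129 within groups. The neutrophil sums of the DMI libraries (4 to 18.9 CPM) overlap those of the saline libraries (10.9 to 52.3 CPM).

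Neither CSF2 receptor subunit passed the test with injury in saline. Csf2ra (chr19:61223957-61228429), the ligand-specific alpha subunit, was at 20.5, 19.7, 17.8 and 21.7 CPM after sham surgery and 23, 25.7, 20.9 and 19.2 CPM after SNI in saline mice. In DMI mice it was at 21.2, 22.9, 18 and 17.8 CPM after sham surgery and 25.7, 22.9, 23.1 and 22.4 CPM after SNI. The SNI-DMI values were above all Sham-Saline values, and the other comparisons overlapped. Between SNI-DMI and Sham-Saline 30.5% of all genes had no overlap (15.3% higher). Its log2 difference with injury was 0.16 in saline (95% interval -0.05 to 0.36, adjusted p = 0.354) and 0.23 in DMI (0.03 to 0.43, adjusted p = 0.345). Csf2ra was most like Gm19680 (r = 0.837), Mapk13 (0.834), Gm6682 (0.822), Sema4a (0.803) and Il3ra (0.802), the alpha subunit of the IL3 receptor.

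Csf2rb, the signalling subunit, was at 3.36, 4.16, 3.29 and 2.1 CPM after sham surgery and 3.89, 5.15, 2.39 and 2.77 CPM after SNI in saline mice. In DMI mice it was at 2.46, 3.51, 1.85 and 1.5 CPM after sham surgery and 4.13, 2.7, 2.29 and 3.23 CPM after SNI. All 4 groups overlapped, and its within-group SD (0.452 on the log2 scale) was the widest of the members, so that its intervals ran from -0.44 to 0.71 with injury and from -0.78 to 0.38 with DMI in injured mice. Csf2rb2 was the gene most like it (r = 0.826), followed by Slfn2 (0.802), Inpp5b (0.785), Ccl8 (0.773) and Adgrb1 (0.773). As reads can be shared between Csf2rb and Csf2rb2, the first of these values is uncertain. The cytokine Csf2 itself, which binds this receptor, had 0 to 3 counts per library and was detected in 3 of the 4 groups by 1 library each, too few to test.

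**Figure D3:**
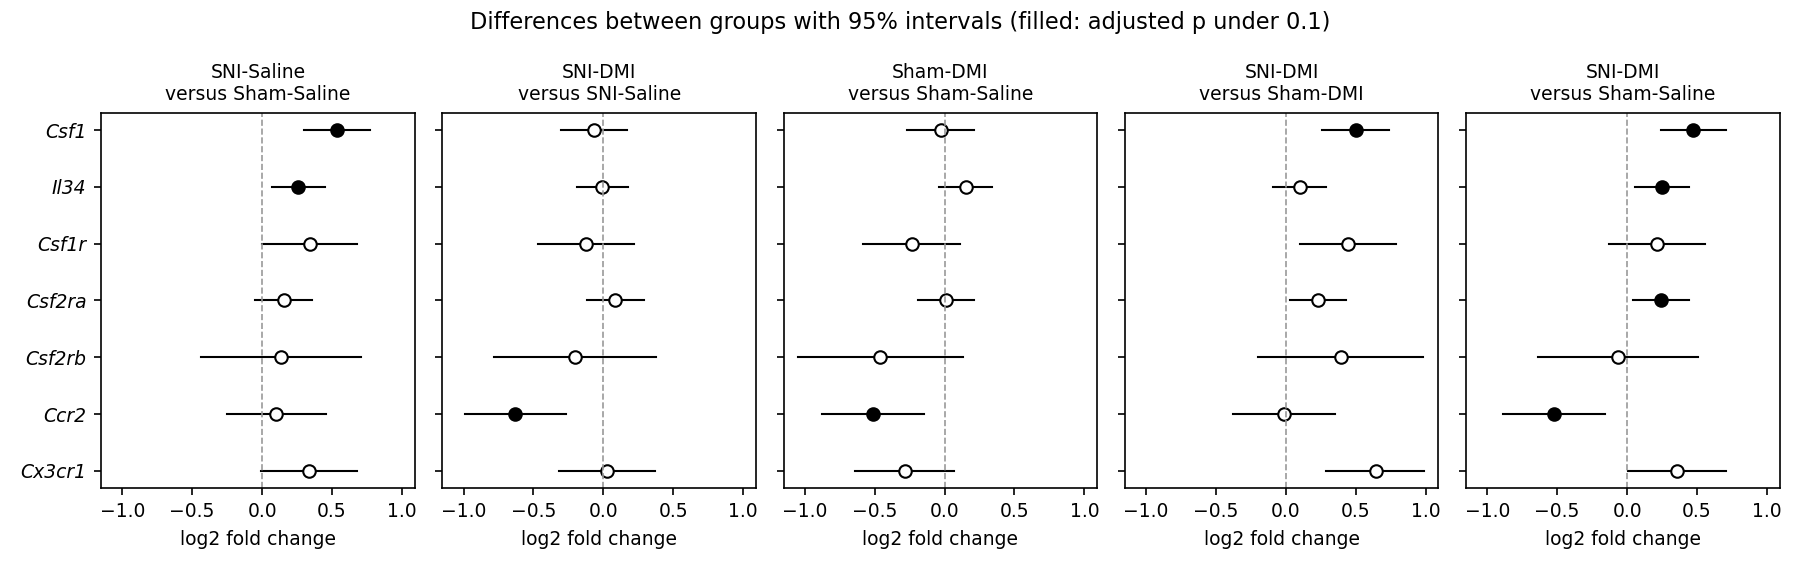
Log2 fold changes (horizontal axis, 95% intervals as lines) of the 7 genes (vertical axis) in the 5 pairwise comparisons, with filled points where the adjusted p was under 0.1. Csf1 is filled in the 3 comparisons of SNI with sham mice (0.47 to 0.54), and Ccr2 in the 3 comparisons of DMI with saline mice (-0.63 to -0.52).

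DMI lowered 1 member, Ccr2, in injured and in sham mice, and raised none. In SNI-DMI against SNI-Saline, 1 of 7 members passed at an adjusted p under 0.1, where 2.93% of all genes did (1.61% lower). In Sham-DMI against Sham-Saline it was again 1 of 7, where 23.4% of all genes passed (11.9% lower), so that 1 of 7 lies below the background share there. Median log2 fold changes over the 7 members were -0.07 in injured and -0.23 in sham mice, against -0.01 (-0.005) and -0.02 over all genes. Under the study's rule Ccr2 was also the only member to count in either comparison (5.73% and 11.5% of all genes).

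Ccr2 (chr9:124101950-124113557, plus strand, 3 exon blocks) encodes the receptor of monocytes for CCL2. Sham-Saline mice had levels of 6, 5.01, 5 and 4.59 CPM, and SNI-Saline mice of 5.72, 7.44, 3.95 and 5 CPM. They were 3.4, 3.72, 3.37 and 3.89 CPM in Sham-DMI and 4.25, 2.79, 3.05 and 4.21 CPM in SNI-DMI. No sham mouse on DMI reached the lowest sham mouse on saline (17.1% of all genes had no overlap there), whereas SNI-Saline replicate 3 lay within the SNI-DMI range. The log2 fold change with DMI was -0.63 in injured mice (SE 0.172, 95% interval -0.99 to -0.27, adjusted p = 0.0904 by edgeR, exact permutation p = 0.0857) and -0.52 in sham mice (SE 0.173, -0.88 to -0.15, adjusted p = 0.0493, exact permutation p = 0.0286). Injury itself left Ccr2 at a log2 difference of 0.10 in saline (-0.25 to 0.46) and -0.01 in DMI (-0.38 to 0.35).

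Both Ccr2 differences rested on the choice of libraries and on a correction. In injured mice the adjusted p rose to between 0.108 and 0.261 in 11 of 16 fits without 1 library, namely without each of the SNI-Saline replicates, SNI-DMI replicates 1, 2 and 3, Sham-Saline replicates 2, 3 and 4, or Sham-DMI replicate 3, and the log2 fold change in those fits ran from -0.77 to -0.44. In sham mice it rose to between 0.105 and 0.149 without Sham-Saline replicate 1 or 3 or Sham-DMI replicate 1 or 3, with log2 fold changes of -0.51 to -0.42. Ccr2 has the lowest GC content of the members (39.4% of its longest transcript, against 50.3% to 57.8%). With smooth trends on GC content and exon length removed from each library, the differences were -0.45 (adjusted p = 0.275) in injured and -0.22 (adjusted p = 0.468) in sham mice.

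**Figure D4:**
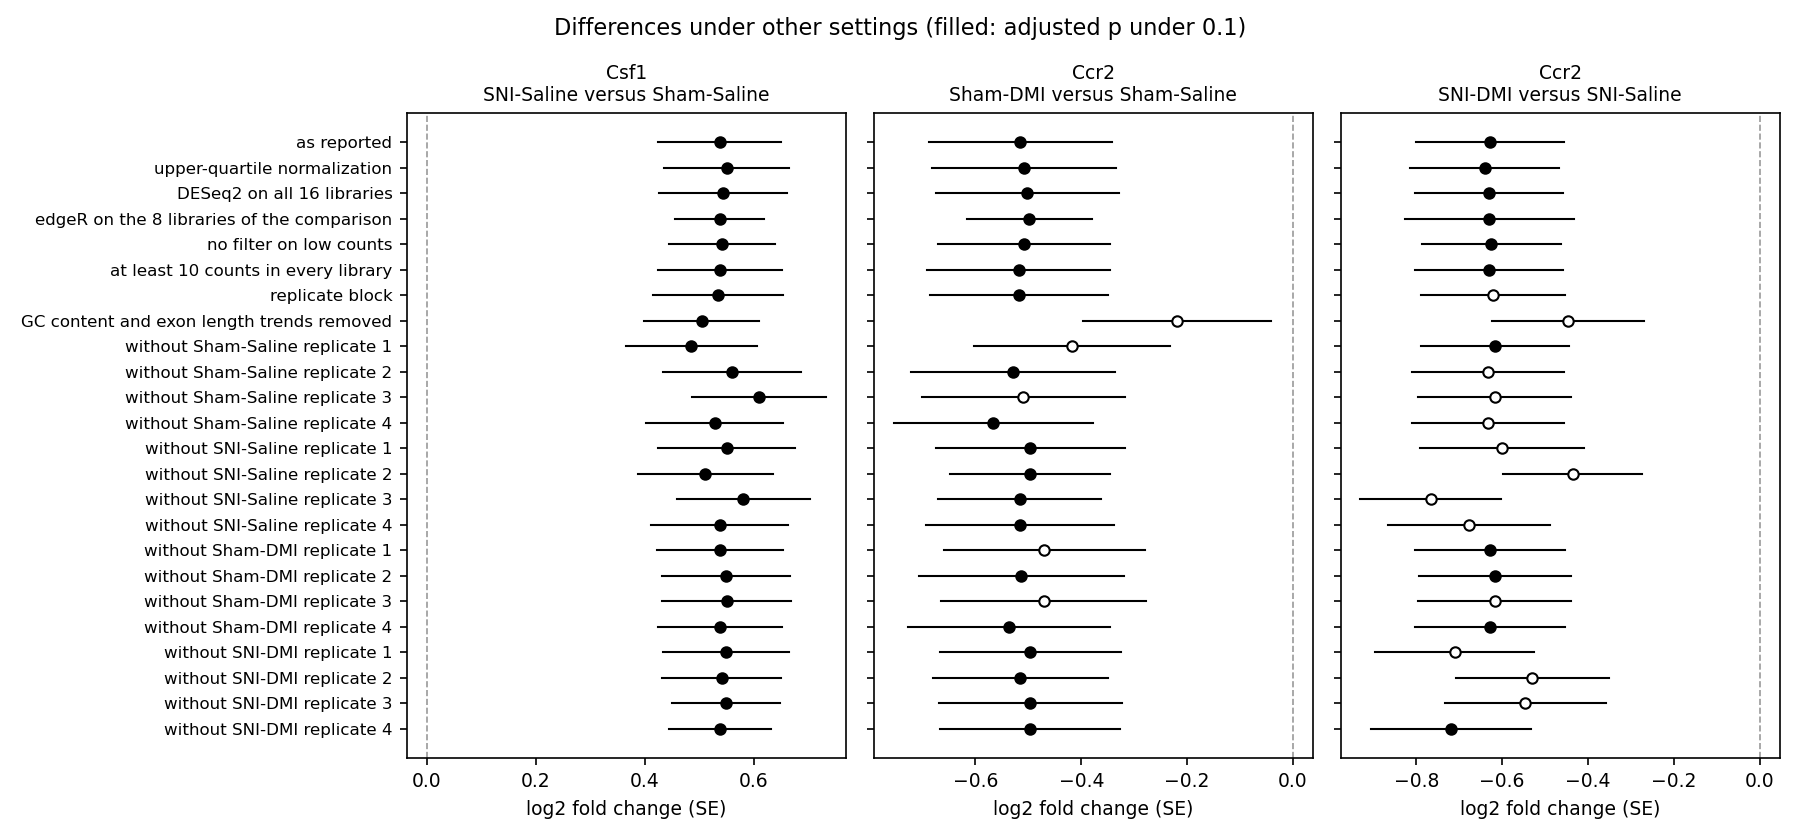
Log2 fold changes with SE (horizontal axes) of Csf1 with injury and of Ccr2 with DMI in sham and in injured mice under each setting (vertical axis), with filled points where the adjusted p was under 0.1. All Csf1 points are filled (0.49 to 0.61), and the Ccr2 point in sham mice moves from -0.52 to -0.22 when GC content and length trends are removed.

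With DMI, some neutrophil markers were called lower in sham and in injured mice, and some monocyte markers in sham mice only. Of 6 erythroid markers, all 6 were lower with DMI in sham and in injured mice, and 0 were called. The 10 neutrophil markers summed to 10.9 to 41.1 CPM after sham surgery and 16.4 to 52.3 CPM after SNI in saline mice, and to 4 to 18.9 and 4.61 to 14.3 CPM in DMI mice. Of these 10, 7 fell with DMI in sham mice (11.9% of all genes did). Those 7 calls were kept in 7 to 16 of 16 fits without 1 library. With GC content and length trends removed, S100a8, S100a9, Ngp, Camp, Retnlg and Mmp8 kept the call in sham mice (adjusted p of 0.00283 to 0.0354 by edgeR). Ltf lost it (-1.48, adjusted p = 0.101). Retnlg and S100a8 fell in injured mice (log2 fold changes of -1.84 and -1.70), where 1.61% of all genes did. Their calls were kept in 10 and 8 of 16 fits without 1 library. With GC content and length trends removed both calls were lost, at -1.86 (adjusted p = 0.104 by edgeR) and -1.66 (adjusted p = 0.117). The 8 monocyte markers summed in the same order to 27 to 41.6, 29.8 to 34.3, 23.3 to 28.8 and 27.5 to 34.3 CPM. With DMI 3 of them were called lower in sham mice (11.9% of all genes were) and 0 in injured mice. The 3 calls were kept in 6 to 14 of 16 fits without 1 library. With GC content and length trends removed Ace kept its call (-0.495, adjusted p = 0.0421 by edgeR). Chil3 (-1.149, adjusted p = 0.114) and Vcan (-0.196, adjusted p = 0.4) lost theirs. Ccr2 correlated with the neutrophil sum at r = 0.617 and only 0.129 within groups, with the monocyte sum at 0.378 and 0.04, and with the sum of 10 T and B cell markers at 0.783 and 0.701. Within groups it also ran with the cell division (0.708), satellite glia (0.681), dendritic cell (0.667) and macrophage (0.605) sums. Its most similar genes were the kinase Syk (r = 0.871) and the granulocyte receptor Csf3r (0.861), followed by Pcdhga7 (0.854), Gimap6 (0.84) and Gm13110 (0.835). The part of these cells in the Ccr2 difference was not tested.

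Cx3cr1 (chr9:119901616-120069879, minus strand), the fractalkine receptor of macrophages and microglia, was at 6.57, 8.31, 8.62 and 8.8 CPM after sham surgery and 8.13, 14, 8.92 and 9.72 CPM after SNI in saline mice. It was at 6.47, 5.71, 6.62 and 7.77 CPM in Sham-DMI and 12, 9.2, 8.05 and 12.3 CPM in SNI-DMI. Each injured mouse on DMI was above each sham mouse on DMI, as it was for Csf1 among the members and without overlap in either direction for 5.04% of all genes, while the saline groups overlapped. The log2 difference with injury was 0.64 in DMI (SE 0.167, 95% interval 0.29 to 0.99, exact permutation p = 0.0286), which missed the threshold over all genes (adjusted p = 0.138), and 0.34 in saline (-0.01 to 0.68, adjusted p = 0.233). DESeq2 gave an adjusted p of 0.0181 for the DMI comparison, and edgeR without the filter on low counts 0.0332. It also passed in 2 of 16 fits without 1 library. With upper-quartile scaling, edgeR on the 8 libraries of the comparison, and the replicate block, alone or with the trends removed, it did not pass. Cx3cr1 varied with Csf1r over the 16 libraries (r = 0.897, and 0.845 within groups), and its closest genes were Cyba (0.921), Sash3 (0.913), Ctss (0.908), Lyz2 (0.908) and C1qc (0.908). Against Ccr2, and per kb of exon, Cx3cr1 stood at a mean ratio of 2.4 ± 0.53 (SD, n = 4) after sham surgery and 2.82 ± 0.517 after SNI in saline mice, and of 2.78 ± 0.32 and 4.38 ± 0.421 in DMI mice. In SNI-DMI the lowest library (3.96) was above the highest of SNI-Saline (3.39). These ratios carry no test. With DMI in injured mice the log2 fold change was 0.02 for Cx3cr1 and -0.63 for Ccr2. That of Ccr2 was -0.45 (adjusted p = 0.275 by edgeR) with GC content and length trends removed.

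SNI-Saline replicate 2 had the highest Csf1r, Csf2rb, Ccr2 and Cx3cr1 of all 16 libraries, together with the highest macrophage (208 CPM), neutrophil (52.3 CPM) and T and B cell (7.67 CPM) sums and the highest dendritic cell sum (522 CPM). Its 6 skeletal muscle markers summed to 77.2 CPM, against 3.58 to 18 CPM in the other SNI-Saline libraries, and the same sum was 275 CPM in SNI-DMI replicate 2 and 49.1 CPM in Sham-Saline replicate 1. The part of carried-over tissue in the results was not tested. Without SNI-Saline replicate 2 the injury difference in saline was 0.51 for Csf1 and remained past the threshold, whereas that of Csf1r was 0.16 and that of Cx3cr1 0.15.

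Injured mice on DMI differed from sham mice on saline in 4 of 7 members, where 35.8% of all genes passed. Csf1 (log2 fold change 0.47, adjusted p = 0.00442), Il34 (0.25, adjusted p = 0.0438) and Csf2ra (0.24, adjusted p = 0.0695) were higher, and Ccr2 was lower (-0.53, adjusted p = 0.0287). This comparison shares its libraries with the ones above. With GC content and length trends removed only Csf1 passed. Without 1 library, Il34 lost the call without Sham-Saline replicate 4 (0.21) or SNI-DMI replicate 4 (0.20), Csf2ra without Sham-Saline replicate 2 (0.23) or 3 (0.22, from 0.215) or SNI-DMI replicate 1 (0.22, from 0.218), and Ccr2 without Sham-Saline replicate 1 (-0.42) or SNI-DMI replicate 3 (-0.43).

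The effect of DMI in injured mice was also compared directly with that in sham mice. None of the 7 members passed, and by edgeR 0 of 21371 genes did (0% of all genes, with 1692 genes at an unadjusted p under 0.05 and 16 passing in DESeq2). The difference between the DMI effects on Ccr2 was -0.11 on the log2 scale (95% interval -0.63 to 0.4), and that on Cx3cr1 was 0.31 (-0.19 to 0.8). The interval for Ccr2 holds differences as large as its DMI effect in sham mice.

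Among 5 chemokines listed as ligands of CCR2 and CX3CR1, 2 rose with injury in saline (5.85% of all genes did) and none passed with DMI. Ccl12 was at 0.686 to 1.15 CPM in Sham-Saline mice and 1.12 to 2.3 CPM in SNI-Saline mice (log2 fold change 0.89, adjusted p = 0.0428), and Ccl8 at 0.643 to 0.841 against 1.09 to 6.34 CPM (1.88, adjusted p = 0.0743). Their calls were lost without Sham-Saline replicate 3 or either SNI-Saline replicate 1 or 2, and that of Ccl8 also without Sham-Saline replicate 1, 2 or 4. The lowest log2 fold changes over the 16 fits were 0.64 for Ccl12 and 1.10 for Ccl8. With GC content and length trends removed Ccl12 kept its call (0.83, adjusted p = 0.0774 by edgeR) and Ccl8 lost it (1.76, adjusted p = 0.13). Ccl2, the main CCR2 ligand, was at 1.54 to 2.64 CPM in Sham-Saline mice and 1.75 to 2.8 CPM in SNI-Saline mice (0.30, adjusted p = 0.529), Ccl7 differed by 0.12 (adjusted p = 0.843) and the CX3CR1 ligand Cx3cl1 by -0.05 (adjusted p = 0.86). In injured mice, DMI against saline gave 0.37 for Cx3cl1 (adjusted p = 0.143) and -0.08 for Ccl2 (adjusted p = 0.89).

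Of 25 signalling partners of the CSF1 and CSF2 receptors, 2 rose and 2 fell with injury in saline, a share close to the 12% of all genes called there, and none passed with DMI in injured mice. The adaptor Tyrobp (log2 fold change 0.74, adjusted p = 0.0418), which carries signals of myeloid receptors, and the inhibitor Socs3 (0.35, adjusted p = 0.0684) rose. The Ras exchange factor Sos1 (-0.37, adjusted p = 0.012) and the ubiquitin ligase Cbl (-0.23, adjusted p = 0.0529), which are expressed in many cell types, fell. Sos1 kept its call in all 16 fits without 1 library. With GC content and length trends removed it was at -0.20 (adjusted p = 0.0501), while Tyrobp (0.59, adjusted p = 0.101), Socs3 (0.29, adjusted p = 0.132) and Cbl (-0.10, adjusted p = 0.24) missed the threshold. Tyrobp also lost it without SNI-Saline replicate 2 (then 0.51) or Sham-Saline replicate 3, Socs3 without replicates 1 or 4 of Sham-Saline or 1, 2 or 3 of SNI-Saline, and Cbl without replicates 1, 3 or 4 of Sham-Saline or 1, 2 or 4 of SNI-Saline.

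Of 10 myeloid transcription factors, Runx1 alone fell with injury (log2 fold change -0.40, adjusted p = 0.0174), a call kept in all 16 fits without 1 library and lost with the trends removed (-0.28, adjusted p = 0.112). Of 9 tested genes of the colony-stimulating factor family outside the members, none passed with injury in saline or with DMI in injured mice, and 2 fell with DMI in sham mice, where 11.9% of all genes fell, among them the granulocyte receptor Csf3r (-1.06, adjusted p = 0.0238). Of 14 tested other recruitment receptors, none passed with injury, and the integrin subunit Itga4, through which leukocytes adhere to endothelium, fell with DMI in injured mice (-0.44, adjusted p = 0.0984, kept in 4 of 16 fits without 1 library).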

How the data were processed

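Poly(A) RNA libraries (stranded kit, 50-base reads) of 16 DRG samples were sequenced, and the authors' deposited values are whole-number counts of mm10-aligned reads per Ensembl gene without normalization. The submitters' processing notes name HISAT2, HTSeq and DESeq2. The HTSeq version, the gene annotation used and the strand setting are not given in the sources used here. The 5 closing lines of unassigned reads in each file were left out, and 79.56% to 81.17% of reads lay on genes. Of 52636 genes, 52489 were matched to GENCODE M21 (GRCm38) for symbols, positions and lengths.

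Counts were fitted in R 4.3.3 with edgeR 4.0.16: filterByExpr on the 4 groups (21371 genes), TMM scaling and the quasi-likelihood test with 1 coefficient per group over all 16 libraries. Genes were called at a Benjamini-Hochberg adjusted p under 0.1 over all genes tested. Levels are CPM on TMM-scaled libraries, divided by the union of exons for values per kb. For each member an exact permutation test, two-sided, was run on log2 CPM (prior count of 2). The edgeR fit was tried on simulated counts for SNI-Saline against Sham-Saline, with changes larger than those of the members in 200 genes. It recovered 77.5% of them, and 10.4% of its calls were false. Changes as small as those of the members were not simulated. Alternatives were DESeq2 1.42.0, upper-quartile scaling, a replicate block, other filters, thresholds and prior counts, summed Csf2rb and Csf2rb2 counts, GC content and length trends removed by smooths (mgcv 1.9.3), and leaving out each library. Sequences were read and aligned with Python 3.11.15 and Biopython 1.88, from RefSeq for promoters and GENCODE for transcripts.

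The members and the 21 lists (198 genes) were chosen with earlier results of these data known. Named are all members, the chemokine ligands of the receptors, Csf2 and Csf2rb2, list genes with an adjusted p under 0.1 with injury or with DMI in injured mice (at most 6 a list), and the 5 genes with the highest Pearson correlation to each member among genes with a mean of at least 1 CPM. Csf3r, Syk and other genes named as most similar follow the last rule. Csf3r and the neutrophil and monocyte markers called with DMI in sham mice were named after their values were seen. Not every list is described.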

Additional observations from a re-analysis of the deposited data

How the results depend on the processing

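The rise of Csf1 with injury in saline kept its direction and its call under each alternative tried. The number of members called with injury in saline, 2 as reported, was 1 with the replicate block, with GC content and length trends removed, with both, at an adjusted p under 0.05 and under the study's rule, and 1 to 2 without 1 library. With DMI in injured mice the 1 call became 0 with the block, with the trends removed, with both and at 0.05, and was 0 to 1 without 1 library. With DMI in sham mice it became 0 with the trends removed, alone or with the block, and was 0 to 3 without 1 library (3 without Sham-DMI replicate 2). With injury under DMI the 1 call became 0 with upper-quartile scaling, edgeR on 8 libraries, the block, the block with the trends removed and at 0.05, 2 with DESeq2 and without the filter, and 3 under the study's rule, with 0 to 2 without 1 library. In SNI-DMI against Sham-Saline 4 became 1 with the trends removed, alone or with the block. The causes were not tested.

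Signs turned only for differences near 0 that passed no test. With the trends removed, alone and with the block, Il34 with injury under DMI went to -0.018 and -0.017, Ccr2 with injury under DMI to 0.043 and 0.041, and Csf2ra with DMI in sham mice to -0.024 and -0.03 (-0.001 with the block alone). Without 1 library, the log2 fold changes that turned ran as follows. With injury in saline they ran from -0.089 to 0.291 for Csf2rb and from -0.064 to 0.24 for Ccr2. With DMI in injured mice they ran from -0.193 to 0.046 for Csf1, -0.055 to 0.041 for Il34, -0.287 to 0.082 for Csf1r, -0.361 to 0.05 for Csf2rb and -0.068 to 0.233 for Cx3cr1. With DMI in sham mice they ran from -0.072 to 0.052 for Csf1 and -0.047 to 0.077 for Csf2ra. With injury under DMI Ccr2 ran from -0.116 to 0.092, and in SNI-DMI against Sham-Saline Csf2rb ran from -0.223 to 0.083. The difference between the DMI effects ran from -0.182 to 0.055 for Csf1, -0.25 to 0.06 for Ccr2 and -0.075 to 0.295 for Csf1r.

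Replicate numbers were treated as names of the mice and not as pairs. Deviations of same-numbered libraries correlated between -0.081 and 0.184, and those of other pairs between -0.248 and 0.169. Per comparison, 0 to 4 of 8 libraries correlated best with their own number. Such weak correlations cannot exclude a pairing. With the block, Il34 with injury in saline had an adjusted p of 0.112, Ccr2 with DMI in injured mice 0.12 and Csf1 with injury under DMI 0.146. Depth limited Csf2, Csf3 and Il3, which had too few counts to test.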

Other observations

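The ligand and receptor levels of single mice can be read beyond the group comparisons. Among the 21 pairs of members over 16 libraries, the closest was Csf1r with Cx3cr1 (Pearson's r = 0.897, and 0.845 after group means were removed), followed by Csf1 with Cx3cr1 (0.808 and 0.64). Il34 and Csf2ra, a ligand and a receptor subunit, varied in opposite ways within groups (-0.587, against -0.013 over all libraries). Csf2ra ran with the neutrophil markers (0.726 within groups) and against the Schwann cell markers (-0.648), whereas Il34 ran against the neutrophil markers (-0.547) and with the Schwann cell markers (0.842). These pairs share libraries and depth and carry no test.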
